A study of Mus musculus with 4 samples.

Results

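The let-7 family is a group of microRNAs (miRNAs) with near-identical sequences. Its 9 members followed here were let-7a, let-7b, let-7c, let-7d, let-7e, let-7f, let-7g, let-7i and miR-98, each as the mature strand from the 5′ side of its hairpin precursor. They were taken by name from the deposited annotation and were 9 of the 991 mature miRNA names that had reads of 18 to 25 nt. The series holds small RNA sequencing of whole mouse testis at 16 days of age, with 2 libraries of wild-type mice and 2 of mice labelled as Hsf5 knockdown. The deposited table calls the knockdown libraries KO, and the labels' word is used here. The labels call the libraries of a group biological replicates and give no strain, no allele, no method of knockdown and no link between a replicate number and an animal, so p-values measure the spread between these libraries. Hsf5 is a heat shock family transcription factor made in male germ cells. Its mRNA cannot be read from small RNA libraries, so the genotype labels were not checked against it. The study was designed around PIWI-interacting RNAs, and the miRNAs are a further class of the same libraries.

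A miRNA is cut from a hairpin by Drosha and Dicer, and the mature strand guides an Argonaute protein to mRNAs, mainly by pairing through its seed, bases 2 to 8 from the 5′ end. let-7 was found as a timing gene of worm development, and in mammals its level is low in stem cells and high in differentiated tissue. LIN28 proteins, made in early germ cells and spermatogonia, bind many let-7 precursors and recruit enzymes that add uridines to them, which blocks their maturation. In the testis, let-7 is known from germ cells and from somatic cells alike. In bulk tissue, fewer cells of a type and less RNA per cell cannot be told apart.

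The mature sequences are shown because the members differ from each other in so few bases that the naming of each read depends on them. They are from RefSeq (GRCm38.p6 tables, in which all 9 members were found), 5′ to 3′, with the seed in capitals, under the full names that the table uses and that are shortened to let-7a and so on elsewhere:
mmu-let-7a-5p: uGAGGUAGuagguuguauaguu
mmu-let-7b-5p: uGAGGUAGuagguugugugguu
mmu-let-7c-5p: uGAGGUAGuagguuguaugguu
mmu-let-7d-5p: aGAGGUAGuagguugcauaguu
mmu-let-7e-5p: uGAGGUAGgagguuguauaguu
mmu-let-7f-5p: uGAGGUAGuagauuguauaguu
mmu-let-7g-5p: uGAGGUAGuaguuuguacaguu
mmu-let-7i-5p: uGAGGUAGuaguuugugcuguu
mmu-miR-98-5p: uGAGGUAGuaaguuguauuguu

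All 9 were 22 nt long and had the same seed. Counted from base 1 at the 5′ end, with the base of let-7a first, let-7c differed from let-7a by A19G, let-7e by U9G and let-7f by G12A. let-7b differed by A17G and A19G, let-7d by U1A and U16C, let-7g by G12U and U18C, and miR-98 by G11A and A19U. let-7i was the most distant, with the 4 substitutions G12U, A17G, U18C and A19U. The RefSeq table held 2 other mature miRNAs with this seed, let-7k and miR-1961, and both were listed at 0 reads of 18 to 25 nt in all 4 libraries. By counting error alone, a count of 0 allows up to 3 reads per library. The RefSeq sequence of miR-1961 is shorter than 18 nt, and that of let-7k is shorter than the members'. Reads under a member's name lay whole within the named mature sequence. If that rule held for these 2, the length range allowed no miR-1961 reads and few forms of let-7k. Their counts of 0 are thus no measure of absence.

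The 9 mature miRNAs come from 12 hairpins, since let-7a, let-7c and let-7f each have 2. By the GENCODE annotation of GRCm39, Mirlet7a-1 (chr13:48691655-48691748), Mirlet7f-1 (chr13:48691305-48691393) and Mirlet7d (chr13:48689488-48689590) lay on the minus strand in an exon of the long non-coding RNA gene 6720427I07Rik. Between the hairpins of that cluster were 261 bases from Mirlet7a-1 to Mirlet7f-1 and 1714 from Mirlet7f-1 to Mirlet7d. Mirlet7c-2 (chr15:85590804-85590898) and Mirlet7b (chr15:85591520-85591604) lay on the plus strand in an exon of the non-coding Lncppara, 621 bases apart. Mirlet7f-2 (chrX:150695342-150695424) and Mir98 (chrX:150696210-150696317) lay on the plus strand in an intron of Huwe1, which encodes a ubiquitin ligase, 785 bases apart.

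The other hairpins of the family had no second let-7 hairpin beside them. Mirlet7a-2 (chr9:41448012-41448107, plus strand) lay in an intron of Mir100hg and Mirlet7c-1 (chr16:77396545-77396638, plus strand) in an intron of Mir99ahg, both host genes of miR-99 and miR-125 family miRNAs. Mirlet7g (chr9:106056039-106056126, plus strand) lay in an intron of Wdr82 and Mirlet7e (chr17:18050614-18050706, plus strand) in an intron of Spaca6, a sperm-egg fusion gene. Mirlet7i (chr10:122821545-122821629, minus strand) overlapped an exon of the non-coding Gm63655 and an intron of the pseudogene D630033A02Rik.

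The libraries held 11117460 (wild type 1), 9260452 (wild type 2), 9619666 (knockdown 1) and 10900306 (knockdown 2) reads. Of these, 279397, 187734, 252079 and 284620 reads carried a member's name, 1003830 in all, as 77 distinct sequences. Levels below are counts per 1000000 miRNA reads (CPM) after TMM scaling, which sets the libraries to a common centre over all miRNAs. The TMM factors were 1.10, 1.12 and 1.14 in wild type 1, wild type 2 and knockdown 1, and 0.712 in knockdown 2, which stood apart from the other 3 libraries. The 2 libraries of a group were no copies of each other, since their miRNA counts differed by a chi-square of 161 per degree of freedom in wild type and 585 in knockdown.

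Of the marker miRNAs used to check the tissue, those of meiotic germ cells summed to 120101, 103149, 88687 and 233345 CPM in wild type 1, wild type 2, knockdown 1 and knockdown 2, with 7 of 8 above the filter on low counts. Those of smooth muscle (2 of 2) summed to 32769, 34463, 31484 and 57725 CPM, those of Sertoli cells (2 of 2) to 2334 to 3565 and those of endothelium (2 of 2) to 2005 to 3852. Those of blood (2 of 3) summed to 80.7 to 178 CPM and those of liver, skeletal muscle and brain (3 of 4) to 9.45 to 15.1, with the brain's miR-124 listed at 0. Germ cell and smooth muscle sums were highest in knockdown 2 and the Sertoli, endothelial and blood sums lowest there. Single markers did not all follow their sum. Of the germ cell markers, miR-34c-5p, miR-741-3p, miR-871-3p and miR-881-3p were highest in knockdown 2. There miR-743a-3p and miR-880-3p were lowest, and miR-449a-5p was neither. Of the blood markers, miR-451a was highest in knockdown 2 and miR-486a-5p lowest. The Sertoli marker miR-202-3p was lowest in wild type 2 and the endothelial miR-126a-5p in wild type 1. The smooth muscle markers went opposite ways, with miR-143-3p at 23912, 28037, 25751 and 52198 CPM and miR-145a-5p at 8857, 6426, 5733 and 5528. The part of these cell types in the results on the family was not tested.

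let-7g, let-7f, let-7i and let-7c were the 4 most abundant members, at ranks 9, 11, 12 and 15 among all mature miRNAs by mean CPM. Their means over the 4 libraries were 31951, 28504, 25454 and 22348 CPM. Since all members have the same length, their levels can be set side by side without a length correction, while any difference in how well each ligates to the adaptors was not tested. The ranges of let-7g and let-7f, of let-7f and let-7i, and of let-7i and let-7c over the 4 libraries overlapped. Within a library the order of reads under the members' own names was steadier. let-7f was above let-7i and let-7i above let-7c in 4 of 4 libraries. let-7g was above let-7f in 3 of 4, knockdown 2 being the exception. Reads with further or other bases at the 3′ end carry other names, as described below. With them counted, let-7i was above let-7f in every library but knockdown 1. It then had 66002, 39865, 51513 and 78634 reads in wild type 1, wild type 2, knockdown 1 and knockdown 2, and let-7f had 63912, 38870, 53253 and 69911.

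The other 5 members were lower, and no neighbouring ranges overlapped from let-7c downwards. let-7a had a mean of 10957 CPM (rank 22), let-7b 5970 (rank 29), let-7d 2889 (rank 43) and let-7e 1846 (rank 60). miR-98, the member from the Huwe1 intron, was the least abundant at 232 CPM (rank 146). By contrast let-7f, one of whose hairpins is its neighbour there, was the second most abundant by reads under its own name. Which of its 2 hairpins a let-7f read came from cannot be read from the mature sequence.

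**Figure D1:**
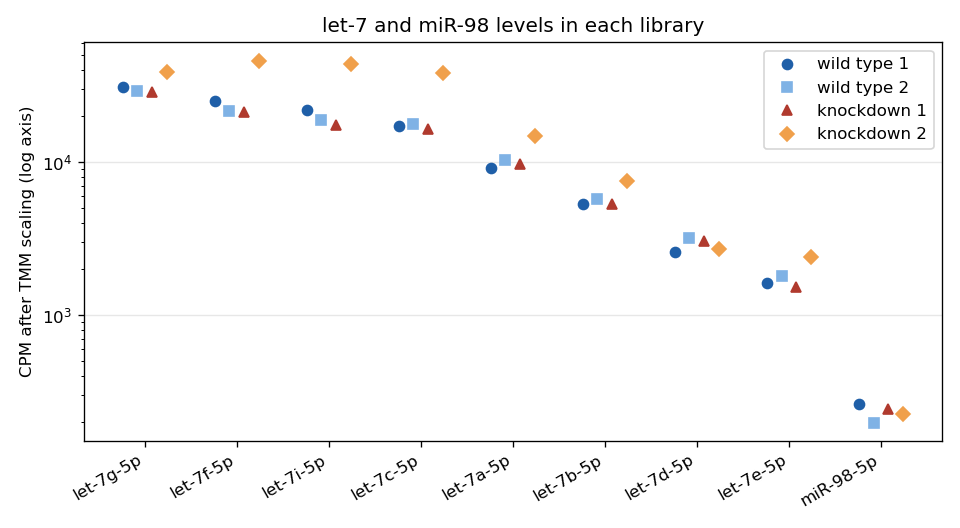
CPM after TMM scaling (log axis) of each member in the 4 libraries, ordered by mean, with 1 point per library. Wild type 1, wild type 2 and knockdown 1 lie close together for every member, and on this scale knockdown 2 lies above them for 7 members but not for let-7d and miR-98.

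No member differed between genotypes beyond the spread of the libraries. In edgeR's quasi-likelihood test over all 936 miRNA names that passed the low-count filter, the adjusted p of each member was 0.992 or 0.994. The same test called 0 miRNAs at an adjusted p under 0.05, a background of 0%, and so did DESeq2. At an unadjusted p under 0.05 edgeR passed 14 names (1.50%, of which 4 were higher and 10 lower in knockdown) and 0 of the 9 members.

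mmu-let-7c-5p was at 17125 and 17764 CPM in wild type and at 16423 and 38082 CPM in knockdown 1 and 2. Knockdown 1 was below both wild-type libraries and knockdown 2 far above them, so the groups overlapped. The log2 difference, knockdown minus wild type, was 0.64 with a standard error (SE) of 0.53. mmu-let-7i-5p was at 21776 and 18840 CPM in wild type and at 17393 and 43805 CPM in knockdown 1 and 2 (log2 difference 0.59, SE 0.56). mmu-let-7f-5p was at 24968 and 21717 CPM in wild type and at 21157 and 46175 CPM in knockdown 1 and 2 (log2 difference 0.53, SE 0.52). All 3 thus had the same arrangement, with knockdown 1 lowest and knockdown 2 highest.

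mmu-let-7g-5p, the most abundant member, was at 30838 and 29108 CPM in wild type and at 28783 and 39074 CPM in knockdown 1 and 2 (log2 difference 0.18, SE 0.40). mmu-let-7a-5p was at 9166 and 10266 CPM in wild type and at 9654 and 14744 CPM in knockdown (log2 difference 0.33, SE 0.41). The groups overlapped again, and knockdown 2 was the highest library for each on this scale. mmu-let-7b-5p was at 5329 and 5774 CPM in wild type and at 5296 and 7482 CPM in knockdown (log2 difference 0.20, SE 0.39). mmu-let-7e-5p was at 1623 and 1810 CPM in wild type and at 1539 and 2412 CPM in knockdown (log2 difference 0.20, SE 0.40).

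let-7d and miR-98 did not have knockdown 2 as their highest library even after TMM scaling. mmu-let-7d-5p was at 2582 and 3214 CPM in wild type and at 3042 and 2717 CPM in knockdown 1 and 2 (log2 difference -0.0095, SE 0.36). mmu-miR-98-5p was at 262 and 199 CPM in wild type and at 242 and 224 CPM in knockdown 1 and 2 (log2 difference 0.018, SE 0.32). For both, the knockdown libraries lay between the wild-type ones.

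Over the 9 members the median log2 difference was 0.20, with 8 above and 1 below 0, beside a median of 0.0090 over all 936 names, with 471 above and 465 below 0. The groups were fully apart by CPM, with knockdown higher, for 106 of the 936 names (11.3%) and, with knockdown lower, for 166 (17.7%), and for 0 members in either direction by CPM after TMM. The members' positive differences rested on knockdown 2. Without that library their median was -0.016 and their values ran from -0.17 for let-7i to 0.12 for miR-98, with 0 members called. Without knockdown 1, let-7c (log2 difference 1.17, adjusted p = 0.0451 in edgeR's test) and let-7i (1.15, adjusted p = 0.0496) passed the threshold, let-7f missed it (1.03, adjusted p = 0.0542), and 53 names were called in all, 33 higher and 20 lower. In that fit the lone knockdown library is assumed to vary as the wild-type libraries do.

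**Figure D2:**
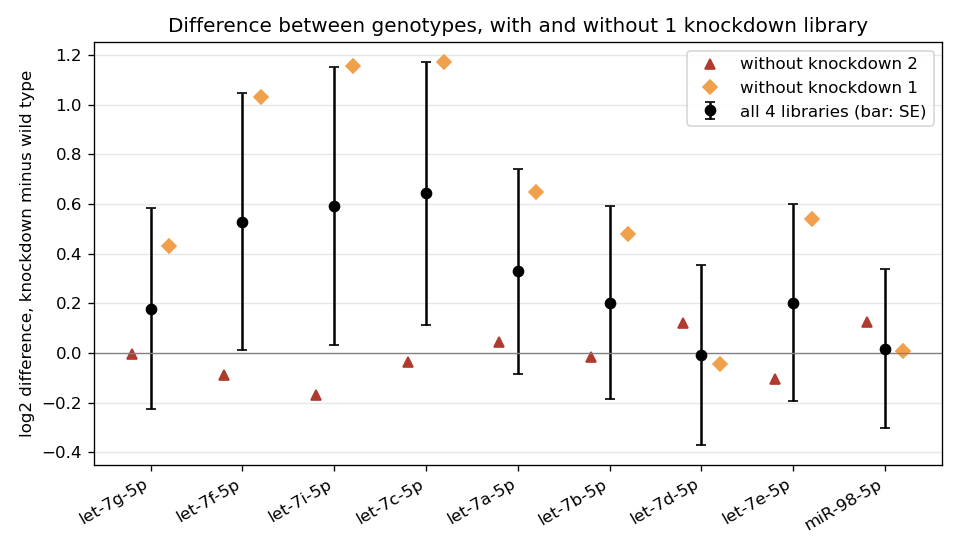
Log2 difference in level, knockdown minus wild type, for each member, with all 4 libraries (black, bar: SE) and with knockdown 2 or knockdown 1 left out. With knockdown 2 left out, values lie between -0.17 and 0.12, and with knockdown 1 left out, let-7c, let-7i and let-7f lie above 1.

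The family's share of all mature miRNA reads does not depend on TMM scaling. It was 13.98% and 13.47% in wild type and 12.94% and 15.37% in knockdown 1 and 2. The means were 13.7% ± 0.359 (SD, n = 2) and 14.2% ± 1.72 (SD, n = 2), and the groups overlapped (exact two-sided permutation test, p = 1). Since 4 libraries can be split 2 against 2 in 6 ways, the smallest p of this test is 0.333. The widest Wilson 95% interval of this share reached 0.0567 percentage points to either side, and such intervals cover counting error only, because PCR reads without molecular identifiers are not independent molecules.

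Which library was highest depended on the scale for several members. By share of mature miRNA reads, without the TMM factor, let-7g was at 3.79% and 3.61% in wild type and at 3.60% and 3.08% in knockdown 1 and 2, and let-7e at 0.1996% and 0.224% in wild type and at 0.192% and 0.190% in knockdown. For these 2 members both knockdown libraries were then below both wild-type libraries (exact two-sided permutation tests, p = 0.333), and knockdown 2, their highest library after TMM, was their lowest. How many of all miRNAs did so on this scale was not counted. With levels scaled by mature miRNA reads, the median log2 difference of all names was -0.24, beside -0.13 for the members. let-7b, at 0.655%, 0.716%, 0.662% and 0.591%, was also lowest in knockdown 2 on this scale, as were let-7d and miR-98. let-7a was at 1.13%, 1.27%, 1.21% and 1.16%, with knockdown 2 between the wild-type libraries. let-7c, let-7f and let-7i kept knockdown 2 as their highest library, at 3.01%, 3.65% and 3.46%, and the groups overlapped for all members but let-7g and let-7e.

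Of all reads of 18 to 40 nt, most of which are other small RNAs, the family made up 2.59% and 2.10% in wild type and 2.81% and 2.63% in knockdown (exact two-sided permutation test, p = 0.333). Both knockdown libraries were above both wild-type libraries on this scale. All mature miRNAs together made up 18.5, 15.6, 21.7 and 17.1 of each 100 such reads in wild type 1, wild type 2, knockdown 1 and knockdown 2.

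Within the family, knockdown 2 had the highest or the lowest share of every member. Wild type 1, wild type 2 and knockdown 1 also differed from each other for some members. There let-7d was at 2.27%, 2.96% and 2.94% and let-7a at 8.06%, 9.44% and 9.33%. let-7g made up 27.1% and 26.8% of the family's reads in wild type, 27.8% in knockdown 1 and 20.1% in knockdown 2. let-7f made up 21.97%, 19.98%, 20.4% and 23.7% in the same order, and let-7i 19.2%, 17.3%, 16.8% and 22.5%. Thus, by reads under the members' own names, let-7g led in 3 libraries and let-7f in knockdown 2. With all 3′ end forms counted, whatever their deposited name, let-7i led in knockdown 2. There it had 78634 reads, beside 69911 of let-7f and 60058 of let-7g. let-7c made up 15.1%, 16.3%, 15.9% and 19.6%, so that let-7c, let-7f and let-7i, a set put together after their values were seen, held 56.2%, 53.7%, 53.1% and 65.8% of the family. The remaining members all had their lowest share in knockdown 2. let-7a ran from 7.57% to 9.44%, let-7b from 3.84% to 5.31%, let-7d from 1.40% to 2.96%, let-7e from 1.24% to 1.67% and miR-98 from 0.115% to 0.234%. The groups overlapped for all 9 members (exact two-sided permutation tests, p = 0.667 or 1), and the widest Wilson 95% interval of these shares reached 0.200 percentage points to either side.

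**Figure D3:**
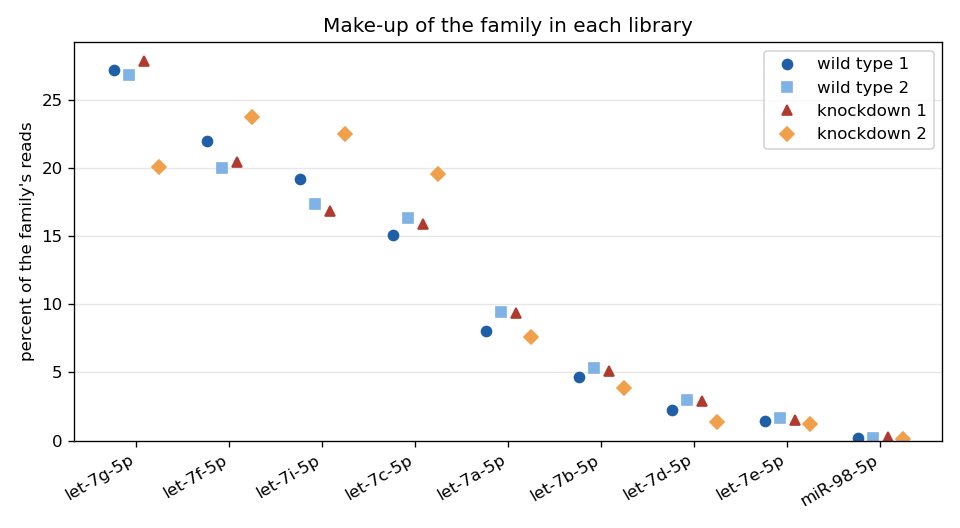
Percent of the family's reads, counted under the members' own names, held by each member in the 4 libraries, with 1 point per library. In knockdown 2, let-7g is at 20.1% and let-7f at 23.7%, while in the other 3 libraries let-7g, at 26.8% to 27.8%, is above every other member.

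Ratios between members, which need no scaling, separate knockdown 2 in the same way. They are a description, since the pairs were chosen after the values were seen. The ratio of let-7i to let-7g reads, the pair that shares G12U and U18C, was 0.706, 0.647 and 0.604 in wild type 1, wild type 2 and knockdown 1, and 1.12 in knockdown 2. The ratio of let-7c to let-7a reads, which differ by A19G, was 1.87, 1.73, 1.70 and 2.58. let-7c to let-7b, whose hairpins Mirlet7c-2 and Mirlet7b are neighbours, was 3.21, 3.08, 3.10 and 5.09. let-7a to let-7d, from the cluster in 6720427I07Rik, was 3.55, 3.19, 3.17 and 5.43, and let-7f to miR-98, neighbours in Huwe1, was 95.1, 109, 87.3 and 206. let-7f to let-7d was 9.67, 6.76, 6.96 and 17.0, with wild type 1 also apart from wild type 2. In each of these ratios knockdown 2 lay above the other 3 libraries. Knockdown 1 lay between the wild-type libraries for let-7c to let-7b and let-7f to let-7d, and below both of them for the other 4 ratios.

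Most reads of the family were full-length. Reads of 22 nt made up 80.9% and 76.4% of the family's reads in wild type and 75.5% and 79.7% in knockdown 1 and 2, and the groups overlapped (exact two-sided permutation test, p = 0.667). Over all libraries 15.0% were of 21 nt and 4.95% of 20 nt, and none of the reads with a member's name was longer than 22 nt. Among reads under the members' own names, let-7i had the largest share of 22 nt reads, at 83.4% to 87.5% across libraries. It was followed by let-7c at 78.7% to 85.9%. With longer and tailed reads of other names counted, as below, the mature end of let-7i made up 68.6% to 71.0%. That was below let-7g (72.6% to 76.2%) and let-7c (69.9% to 75.2%) in each library. Under their own names, let-7d, let-7e and miR-98 had smaller shares of 22 nt reads, at 60.3% to 67.8%, 55.8% to 63.2% and 52.2% to 67.8%. With all forms counted, their mature ends made up 55.7% to 60.9%, 48.5% to 52.8% and 51.0% to 66.2%. Few reads began at another base than the mature 5′ end, 0.0311%, 0.0336%, 0.0413% and 0.0249% of the family's reads in wild type 1, wild type 2, knockdown 1 and knockdown 2, so that nearly all carried the shared seed in place.

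**Figure D4:**
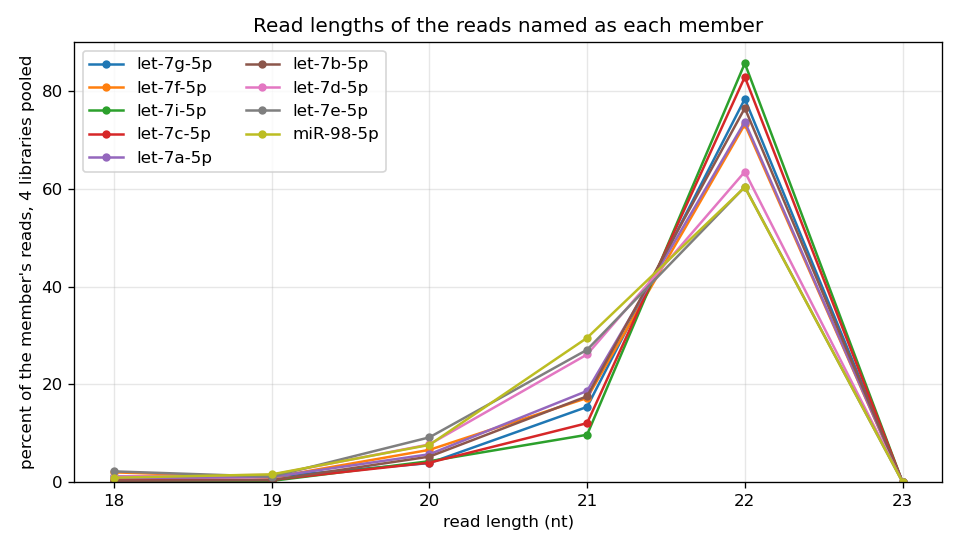
Percent of the reads under each member's own name at each length in nt, with the 4 libraries pooled and 1 line per member. All members peak at 22 nt, let-7i highest at 85.8% and miR-98 lowest at 60.4%, and none has reads of 23 nt under its own name.

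The deposited names bear on these lengths. All member-named reads lay whole within the named mature sequence, so a read longer than the mature form appears in the table under another name. By the first line that lists each sequence in a library, 1 of the 77 carried different member names between libraries. This was an 18 nt sequence common to let-7a and let-7c. It was named let-7c in wild type 1 and knockdown 1 and let-7a in the other 2 libraries, so that 18 nt reads made up 0%, 1.92%, 0% and 1.63% of let-7a in wild type 1, wild type 2, knockdown 1 and knockdown 2. It held 0.117% to 0.233% of the family's reads in a library.

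To follow the 3′ ends, all reads of the table that start at a member's mature 5′ end were compared with the RefSeq hairpins, whatever their deposited name. A read was called longer and templated where its extra bases are in the hairpin, and tailed where its last 1 to 3 bases are not. This gave 1122613 reads of the family. The mature end made up 72.0%, 68.4%, 68.3% and 70.8% of them in wild type 1, wild type 2, knockdown 1 and knockdown 2, and shorter ends 16.9%, 21.1%, 22.1% and 18.03%. Tails of A made up 3.60%, 3.59%, 3.33% and 3.87%, tails of U 2.39%, 2.02%, 1.91% and 2.55%, and other tails 0.446% to 0.504%. None of these 5 forms separated the genotypes. Longer templated ends were at 4.53% and 4.37% in wild type and at 3.94% and 4.25% in knockdown, with both knockdown libraries lower by a mean of 0.355 percentage points (exact two-sided permutation test, p = 0.333).

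Of the extended reads, 6 are shown that differ from the mature forms by 1 base at the 3′ end, in capitals here, with examples of bases that the hairpin does and does not encode:
let-7i with U: ugagguaguaguuugugcuguuU
let-7i with A: ugagguaguaguuugugcuguuA
let-7c with U: ugagguaguagguuguaugguuU
let-7c with A: ugagguaguagguuguaugguuA
let-7b with U: ugagguaguagguugugugguuU
let-7e with U: ugagguaggagguuguauaguuU

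let-7i with U was the most abundant extended read of the family, with 6826, 3850, 4930 and 7634 reads in wild type 1, wild type 2, knockdown 1 and knockdown 2. let-7i with A had 4581, 2758, 3355 and 5481 reads. Neither of these sequences, nor let-7c with A or let-7e with U, has an exact place in GRCm39, so their last base was not read from a locus of that assembly. In let-7b and let-7c the base after the mature end is a U in the hairpin, and there a U from the precursor cannot be told from an added one.

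Per 100 reads with the mature end, over all libraries, let-7i had 14.1 reads with 1 further U and let-7e had 13.5, both untemplated. These were ranks 20 and 21 among the 47 miRNAs with enough reads with an untemplated U, whose median was 9.39. Among members in which a hairpin encodes the U, let-7b had 33.1, let-7c 9.07, let-7d 8.49, let-7a 7.01, let-7g 4.20 and let-7f 4.10, beside a median of 13.4 over 47 miRNAs. let-7b was thus above that median and the other 5 below it. One further A, which none of the hairpins encodes, was found at 9.80 per 100 in let-7i (rank 14 of 56, median 4.01), 7.40 in let-7b, 3.98 in let-7c, 3.20 in let-7e, 3.12 in let-7d, 2.21 in let-7a, 2.11 in let-7g and 1.39 in miR-98. let-7f with A and miR-98 with U were listed at 0 in all 4 libraries. let-7f is an abundant member and is found with U, and whether the authors' annotation left some tailed reads out was not tested, so values are compared between libraries within a member and not tested between members.

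Between genotypes these values differed by little. The further U of let-7i was at 14.6 and 14.0 per 100 mature-end reads in wild type and at 13.95 and 13.8 in knockdown. Both knockdown libraries were lower, by a mean of 0.438 (exact two-sided permutation test, p = 0.333). let-7g was at 4.71 and 4.23 in wild type and at 3.92 and 3.82 in knockdown, and let-7f at 4.49 and 4.22 in wild type and at 3.88 and 3.81 in knockdown. let-7c and let-7d also had both knockdown libraries lower. In all, 5 of the 8 members compared did, beside 21 of all 94 miRNAs compared (22.3%), and 0 members had both higher, beside 10.6%. Among these 5 only the U of let-7i is untemplated, since a hairpin encodes it for let-7c, let-7d, let-7f and let-7g. The 94 miRNAs likewise hold 47 with a templated and 47 with an untemplated U. For a further A, 2 of 7 members, let-7c and let-7g, had both knockdown libraries lower, beside 12.9% of 70 miRNAs. let-7b with U was at 32.0 and 31.9 in wild type and at 29.8 and 39.0 in knockdown 1 and 2, with the groups overlapping.

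**Figure D5:**
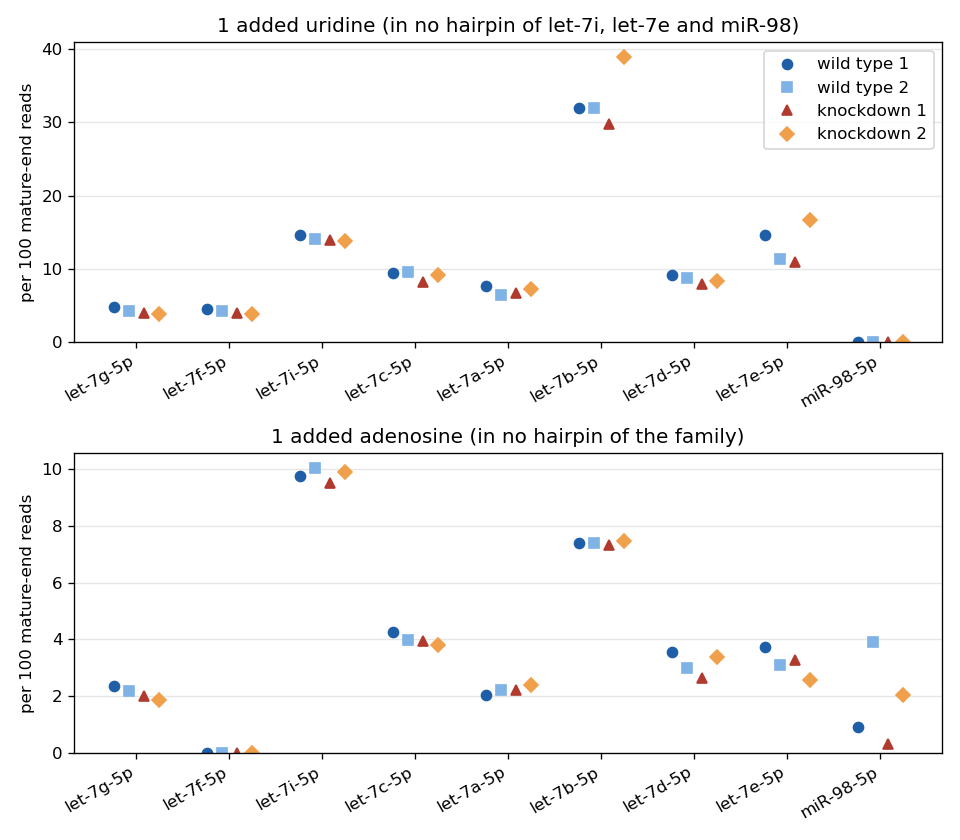
Reads with 1 base added after the mature end, per 100 reads with the mature end, by member and library, for uridine (top) and adenosine (bottom). let-7b has the most with uridine, 29.8 to 39.0, where its hairpin has the same base, and let-7i the most with adenosine, 9.50 to 10.1.

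The opposite strands of the hairpins, the passenger arms, were rare apart from let-7d-3p. let-7d-3p had 2775, 2037, 3885 and 2414 reads in wild type 1, wild type 2, knockdown 1 and knockdown 2, which made up 30.4% and 26.8% of the reads of both let-7d arms in wild type and 34.4% and 37.8% in knockdown. Both knockdown libraries were higher, with means of 28.6% ± 2.53 (SD, n = 2) and 36.1% ± 2.40 (SD, n = 2), and the exact two-sided permutation test gave the smallest p it can, 0.333. The widest Wilson 95% interval of these shares reached 1.19 percentage points to either side. In the fit over all miRNAs the log2 difference of let-7d-3p was 0.49 (SE 0.34) and was not called. The other 11 arms together made up 0.224%, 0.213%, 0.243% and 0.0755% of the reads of both arms under their deposited names, lowest in knockdown 2. Counting reads of any name that begin with an arm's first 18 bases, a count added after seeing the data, raised this to 0.559%, 0.490%, 0.511% and 0.173%, again lowest in knockdown 2. Counted so, let-7d-3p was at 29.2% and 26.1% in wild type and at 33.4% and 37.1% in knockdown, and both knockdown libraries were still higher.

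let-7c-1-3p, which comes from the Mir99ahg hairpin alone, was at 105 and 79.3 CPM in wild type and at 62.8 and 46.5 CPM in knockdown. Of its reads and all let-7c reads together, it made up 0.607%, 0.445%, 0.381% and 0.122%. Both knockdown libraries were lower (exact two-sided permutation test, p = 0.333), while let-7c itself was highest in knockdown 2. This is not the arm share of the Mir99ahg hairpin alone, since let-7c reads come from both let-7c hairpins and cannot be told apart. let-7e-3p made up 3.62%, 3.52%, 5.09% and 1.48% of its arms, with the groups overlapping. let-7f-2-3p and let-7g-3p were listed at 0 under their names, and let-7a-1-3p and let-7c-2-3p have identical sequences and cannot be told apart. Of the 12 arms 9 passed the low-count filter, with 4 above and 5 below 0 in log2 difference, a median of -0.092 and 0 called.

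The miRNAs encoded beside let-7 hairpins, members of the miR-99 and miR-125 families, parted in knockdown 2 after TMM scaling. miR-99a was at 44271, 51074, 52155 and 24851 CPM in wild type 1, wild type 2, knockdown 1 and knockdown 2, and miR-125b at 17795, 20533, 23749 and 8327. miR-125a, from the cluster of let-7e, was at 7791, 7354, 9162 and 3301. These 3 were lowest in knockdown 2 both after TMM and by share of mature miRNA reads, and let-7c was highest there on both scales, while let-7e was highest there after TMM and lowest by share. miR-99b was at 38323, 39349, 44890 and 46829 CPM and miR-100 at 16435, 19765, 21602 and 28854, both higher in both knockdown libraries after TMM, as were 11.3% of all names. Both were highest in knockdown 2 after TMM, as were let-7a and let-7e. By share of mature miRNA reads, at 4.71%, 4.88%, 5.61% and 3.70% for miR-99b and 2.02%, 2.45%, 2.70% and 2.28% for miR-100, their groups overlapped. Of the 5 partners 2 were above and 3 below 0 in log2 difference, with a median of -0.26 and 0 called.

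The family's summed level was 113670, 108691, 103530 and 194716 CPM in wild type 1, wild type 2, knockdown 1 and knockdown 2. Among 193 other mature miRNAs with a mean of at least 100 CPM, those nearest to it in centred log2 CPM over the 4 libraries were miR-741-3p (mean absolute distance 0.060), miR-322-5p (0.064), miR-1a-3p (0.068), miR-30c-2-3p (0.070) and miR-465c-5p (0.073). miR-741-3p, a marker of germ cells here, was at 21294, 20931, 17470 and 36208 CPM. All 5 were highest in knockdown 2 after TMM, which follows from their choice by nearness to a sum that was highest there.

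In all, 123 shares, ratios and form values were compared between genotypes by the exact test. Of these, 24 reached its smallest p, 0.333, and the lowest Benjamini-Hochberg adjusted p was 1.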

How the data were processed

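The deposited table lists each read sequence with its length, count, annotation and library. The authors deposited raw read counts, with adaptor trimming by cutadapt and genome build mm39 per the submitters' processing notes. No source used here gives the aligner, the annotation rules or their handling of mismatches. Reads of class miRNA and 18 to 25 nt were summed by name, each sequence once per library. The table held 12700077 lines for 6208912 pairs of sequence and library. Where a sequence had several lines in a library, the name and class of the first line were used. Whether the later lines gave other names was not tested. The names were tested with edgeR 4.0.16 (R 4.3.3; TMM scaling, robust quasi-likelihood test, at least 1 CPM in 2 libraries, Benjamini-Hochberg threshold 0.05), with DESeq2 1.42.0 as an alternative. Mature and hairpin names were separate entries of the same fit and the same adjustment. Of the 936 names tested, 639 were mature, and background shares over the 936 cover both kinds. The script was tested on simulated data. The SE of a log2 difference is its size divided by the square root of the F statistic. Shares were compared by exact two-sided permutation tests. For 3′ ends a templated part of at least 18 nt, or 20 nt before a tail of up to 3 nt, was required. Further-base values over all miRNAs used those with at least 100 mature-end reads and 5 reads with the base in every library. Sequences are from RefSeq, and all 12 hairpins equal GRCm39 at their GENCODE places.

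The members and lists were chosen with earlier results of these data known. Named miRNAs are the 9 members, other miRNAs of the same seed, their 12 passenger arms, 5 cluster partners, and the 5 miRNAs of at least 100 CPM nearest to the family's sum in centred log2 CPM. Ratios and sets chosen after seeing values are so described. Groups follow the labels' genotypes. Alternatives were another tool, 2 other scalings, no filter, 1 name per sequence, other read lengths, a replicate block, leaving out each library and, chosen after seeing the data, counting extended and tailed reads with their member, passenger arm reads under any name, and cluster partners as shares of mature reads.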

Additional observations from a re-analysis of the deposited data

How the results depend on the processing

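The count of miRNAs called between genotypes was 0 in the main analysis, with DESeq2, with both other scalings, with 1 name per sequence, with both other length ranges and with extended and tailed reads added, and 2 without the low-count filter. It ran from 0 to 53 when 1 library was left out, with 53 without knockdown replicate 1 and 4 without knockdown replicate 2 or wild type replicate 2. With the replicate number as a block it was 0, and the members' median log2 difference was 0.18. The labels do not say what a shared number means, and the replicate 1 minus replicate 2 differences of the 2 groups had a correlation of 0.247 across 936 miRNA names, which are not independent.

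Scaling by mature miRNA reads moved the median log2 difference of all names to -0.24 and turned let-7a to -0.017, let-7b to -0.13, let-7e and let-7g to -0.15 and miR-98 to -0.24. let-7d turned to 0.047 with DESeq2 and 0.025 with 1 name per sequence, and miR-98 to -0.034 when scaled by all reads of 18 to 40 nt and -0.011 without the filter. With 1 library left out, log2 differences ran from 0.043 to 0.65 for let-7a, -0.016 to 0.48 for let-7b, -0.035 to 1.17 for let-7c, -0.058 to 0.19 for let-7d, -0.11 to 0.54 for let-7e, -0.089 to 1.03 for let-7f, -0.0060 to 0.43 for let-7g, -0.17 to 1.15 for let-7i and -0.14 to 0.33 for miR-98. Apart from these fits, the lowest adjusted p of any member in any alternative with all 4 libraries was 0.962.

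The difference in family share, 0.432 percentage points, ran from -0.782 to 1.65 with 1 library left out. Differences in 3′ form ran from -2.52 to 1.09 points for the mature end, -1.03 to 3.13 for shorter ends, -0.510 to -0.200 for longer templated ends, -0.293 to 0.344 for tails of U and -0.267 to 0.273 for tails of A. Counted over distinct sequences in place of reads, they turned to -0.177 for shorter ends, 0.109 for longer templated ends, -0.228 for tails of U and -0.0851 for tails of A. The cause of these turns was not tested. Depth limits miR-98 most, with 328 to 645 reads per library.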

Other observations

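By the first line that lists each sequence in a library, nearly all tailed reads of the family carried repeat names. Of 71124 reads with an untemplated tail, 39039 carried a SINE name, 17863 an LTR name and 14037 a LINE name. The first-listed name of the same sequence differed between libraries, and whether the full set of its names did was not tested. Tailed reads of the family under the SINE name ID_B1 numbered 13057, 6750, 56 and 14030 in wild type 1, wild type 2, knockdown 1 and knockdown 2, which was 34.7%, 13.7%, 0.196% and 47.7% of all ID_B1 reads of 18 to 25 nt. In knockdown 1, 5326 such reads stood under the LINE name Lx8 (14.9% of its reads, beside 1.11% to 2.38% in the other libraries) and 3366 under the SINE name B4A (10.1%, beside 0.0160% to 0.130%). let-7i with U carried the names ID_B1 and Lx8, and let-7i with A the names ID_B1 and B4A. The LTR name RodERV21-int, which let-7c with A carried, took 37.5%, 30.2%, 28.8% and 51.8% of its reads of that length from the family, and RLTR15 13.5%, 27.8%, 18.1% and 67.5%. Counted by first-listed name, levels of these repeat names at miRNA length therefore include let-7 reads in amounts that differ by library.

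Reads with extra templated bases carried hairpin names, and the first-listed ones also changed between libraries. The 2 let-7c hairpins share the first base after the mature end, and reads under Mirlet7c-1 numbered 3453, 66, 2696 and 192 in wild type 1, wild type 2, knockdown 1 and knockdown 2, beside 170, 2469, 128 and 4625 under Mirlet7c-2. For let-7a the numbers were 1381, 38, 1169 and 1221 under the first hairpin and 9, 823, 16 and 19 under the second. Sums over both hairpins do not depend on this choice of name.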
